A study of Camellia sinensis var. assamica with 4 samples.

Results

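The genes that keep CG methylation in place through cell division were examined in young leaf of tea, Camellia sinensis var. assamica. They are MET1 (identifier CSA018787), VIM (CSA002777) and DDM1 (CSA030020). All were taken by identifier from the study's list of tea homologs of Arabidopsis thaliana methylation genes, drawn up by sequence search. That list gives a single tea gene for the whole Arabidopsis VIM family, and a single one for MET1 and its relatives. The study described the RNA-seq level of the methylation genes as relatively high and set it beside real-time PCR. These 3 genes are among the 27554 genes listed in the expression table, and 34 other DNA methylation pathway genes of the same list served as their reference. The series holds 4 samples of young leaf, 2 for bisulphite sequencing and 2 for RNA-seq, and the values used here are those of the RNA-seq. All samples are of the same tissue with no treatment, mutant or other stage named, so there is no difference between conditions to test. The age and number of the plants, and what separates the RNA-seq replicates, are not given in the sources used here.

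In plants, cytosines are methylated in the CG, CHG and CHH contexts, where H is A, C or T. After replication a CG site carries the mark on the old strand alone, and in Arabidopsis MET1, the homolog of mammalian DNMT1, copies it to the new strand. VIM proteins bind such hemi-methylated sites through an SRA domain and are needed for MET1 to act there. DDM1 is a chromatin remodeller of the SNF2 family that gives methyltransferases access to nucleosome-bound DNA, above all in transposable elements, and its loss in Arabidopsis lowers methylation in CG and non-CG contexts alike.

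Levels are given as FPKM, the fragments on a gene divided by its length and by the mapped fragments of the library. This allows for differences in gene length, but the gene models behind those lengths could not be checked here. Ratios between genes carry that limit. The values summed to 1070174 in replicate 1 and 1010900 in replicate 2, and the median gene stood at FPKM 4.47 in replicate 1 and 4.49 in replicate 2. The number of fragments behind each value is unknown, and the error given is the SD of the 2 replicates, which may be technical. None of the 27554 identifiers carries a name in the table or could be found in the RefSeq annotation of the species, so the leaf was not checked against marker genes and no position or sequence is given for these genes. In a bulk sample, fewer cells with a transcript and less transcript per cell cannot be told apart.

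By the mean, all 3 CG maintenance genes lay below the median of the listed genes, and MET1 was the lowest. MET1, the methyltransferase itself, was measured at FPKM 1.11 in replicate 1 and 0.866 in replicate 2, with a mean of 0.988 ± 0.172 (SD, n = 2). VIM, the reader of hemi-methylated sites, was measured at FPKM 2.57 in replicate 1 and 2.55 in replicate 2, with a mean of 2.56 ± 0.0122 (SD, n = 2). DDM1, the remodeller, was measured at FPKM 2.83 in replicate 1 and 1.72 in replicate 2, with a mean of 2.28 ± 0.785 (SD, n = 2). Both values of MET1 lay below both values of VIM and of DDM1. The values of VIM fell between those of DDM1, so these 2 genes could not be ordered beyond their spread. An exact unpaired permutation test of 2 against 2 values cannot give a two-sided p below 0.333, and none was run.

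**Figure D1:**
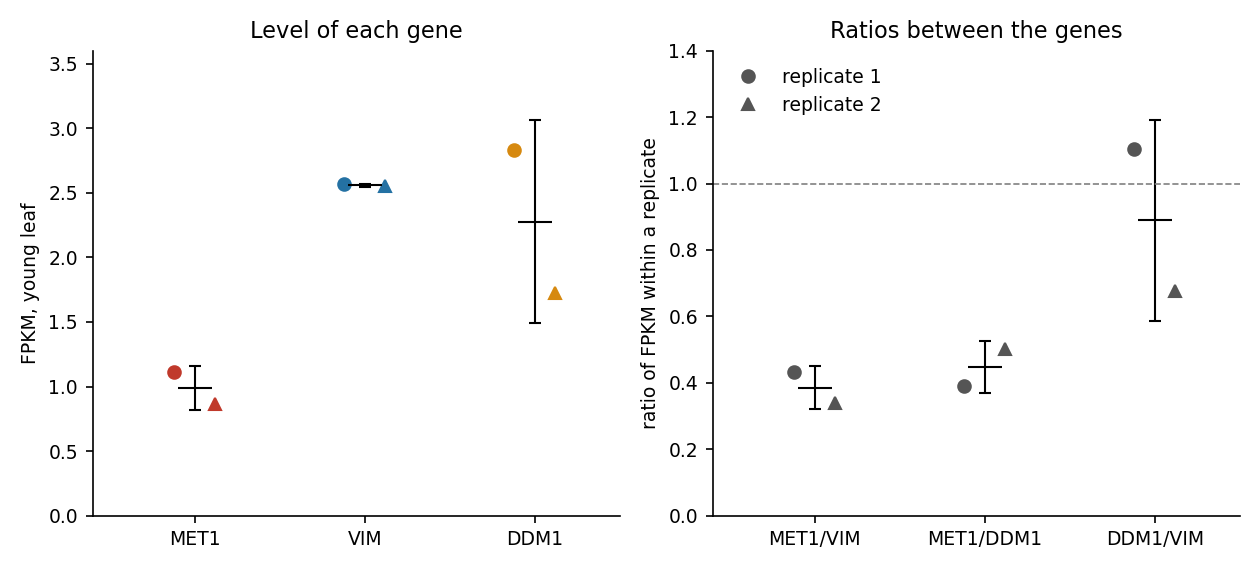
FPKM of MET1, VIM and DDM1 in young leaf (left) and the ratio of FPKM between pairs of them within each replicate (right). Circles are replicate 1, triangles replicate 2, and the black bars the mean ± SD (n = 2). MET1 lies lowest in both replicates, at 1.11 and 0.866, and the DDM1/VIM ratio lies on either side of 1.

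The ratios between these genes were taken within each replicate, where the scaling to library size cancels. MET1 stood at 0.432 of VIM in replicate 1 and at 0.339 in replicate 2, a mean ratio of 0.386 ± 0.0655 (SD, n = 2). Against DDM1, MET1 stood at 0.392 in replicate 1 and at 0.503 in replicate 2, a mean ratio of 0.447 ± 0.0783. In both replicates, then, the methyltransferase was the lowest of the 3. The DDM1/VIM ratio was 1.10 in replicate 1 and 0.675 in replicate 2, a mean of 0.889 ± 0.302, so the order of the remodeller and the reader turned round between the replicates. MET1 made up 17.0% of the summed FPKM of the 3 genes in replicate 1 and 16.8% in replicate 2. VIM made up 39.5% in replicate 1 and 49.6% in replicate 2, and DDM1 43.5% and 33.5% in the same order. The SD of the share was 0.141 percentage points for MET1, 7.20 for VIM and 7.06 for DDM1. These shares depend on one another, since each is taken of the same sum. That sum was FPKM 6.51 in replicate 1 and 5.14 in replicate 2, mainly through the drop in DDM1. The FPKM of VIM hardly changed and varied less than that of MET1, but its share rose as the sum fell. The share of MET1 stayed level because its FPKM fell by nearly the same factor as the sum. With n = 2, this does not show a steady share of MET1.

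Among all 27554 listed genes, the 3 lay below the median. Of these listed genes, 0 were at 0 in both replicates, and 9396 identifier numbers have no row. If those numbers were counted as genes at 0, 43.9% of genes would lie below MET1, 54.1% below VIM and 52.6% below DDM1. That alternative was chosen after seeing the data, and the values that follow are among listed genes. Of those, 7070 (25.7%) had an FPKM above 0 in either replicate that another gene shared exactly, against 0 of the 3 genes. Why values repeat was not tested, and each row was ranked as a separate gene. MET1 was at rank 20727 from the top, with 24.8% of genes below it by the mean, 26.6% in replicate 1 and 24.0% in replicate 2. VIM was at rank 16971, with 38.4% of genes below it by the mean, 38.8% in replicate 1 and 38.7% in replicate 2. DDM1 was at rank 17531, with 36.4% of genes below it by the mean, 40.6% in replicate 1 and 32.8% in replicate 2. The mean of MET1 was 0.217 of the FPKM of the median gene, that of VIM 0.563 and that of DDM1 0.501. All 3 genes had a mean of at least 0.5, under which the study places its lowest expression group, as did 82.2% of all listed genes. A mean of at least 1 was reached by VIM and DDM1, and by 75.0% of all listed genes. MET1 lay on either side of that limit, above it in replicate 1 and below it in replicate 2. When the genes were divided by rank into 3 classes of equal size, MET1 was in the lowest class in both replicates and VIM in the middle class in both. DDM1 was in the middle class in replicate 1 and in the lowest in replicate 2.

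**Figure D2:**
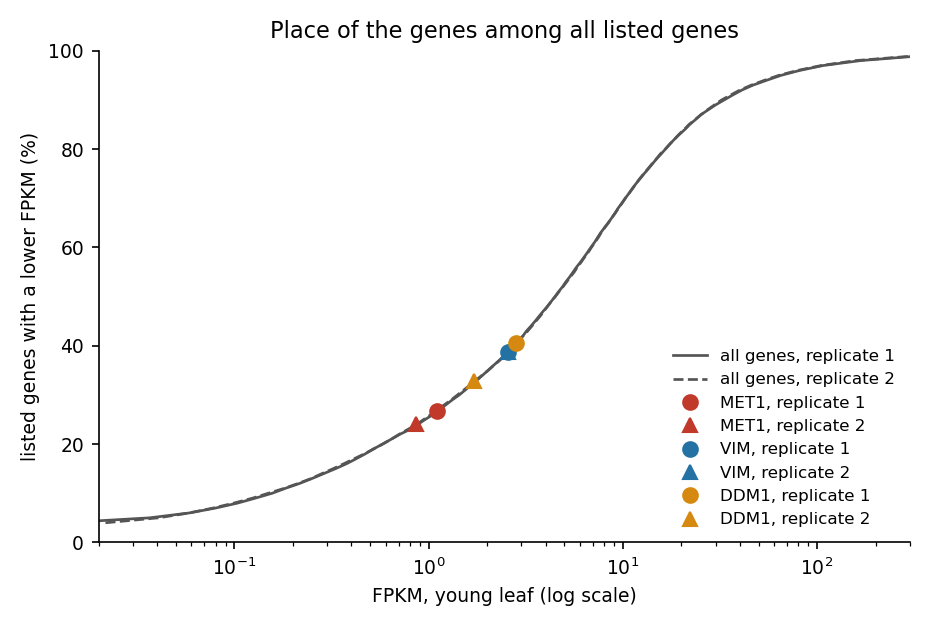
Percent of the 27554 listed genes with a lower FPKM, against FPKM on a log scale, for replicate 1 (solid line) and replicate 2 (dashed line). Coloured points are MET1, VIM and DDM1, circles in replicate 1 and triangles in replicate 2. All 6 points lie between 24.0% and 40.6% of genes.

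Beside the 34 other genes of the methylation pathway, the CG maintenance genes stood near the bottom. Their median of mean FPKM was 2.28, against 5.42 for the other genes, whose means ran from 1.08 to 57.4. All 3 were below the median of all listed genes, as were 13 of the other 34. With MET1, 33 of the 34 lay above it in both replicates without overlap. The values of the remaining gene, DCL4 (CSA011120), a Dicer that makes small RNAs, overlapped. VIM had 29 of the 34 above it, 4 below it and 1 overlapping, while DDM1 had 27 above it, 3 below it and 4 overlapping. By the mean alone, 0 of the 34 were below MET1, 5 below VIM and 4 below DDM1. Of all listed genes, 24.8%, 38.4% and 36.4% were below them in the same order. MET1 was thus the lowest of the 37 genes by the mean and in replicate 2, and the next to lowest in replicate 1, where DCL4 was lower.

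**Figure D3:**
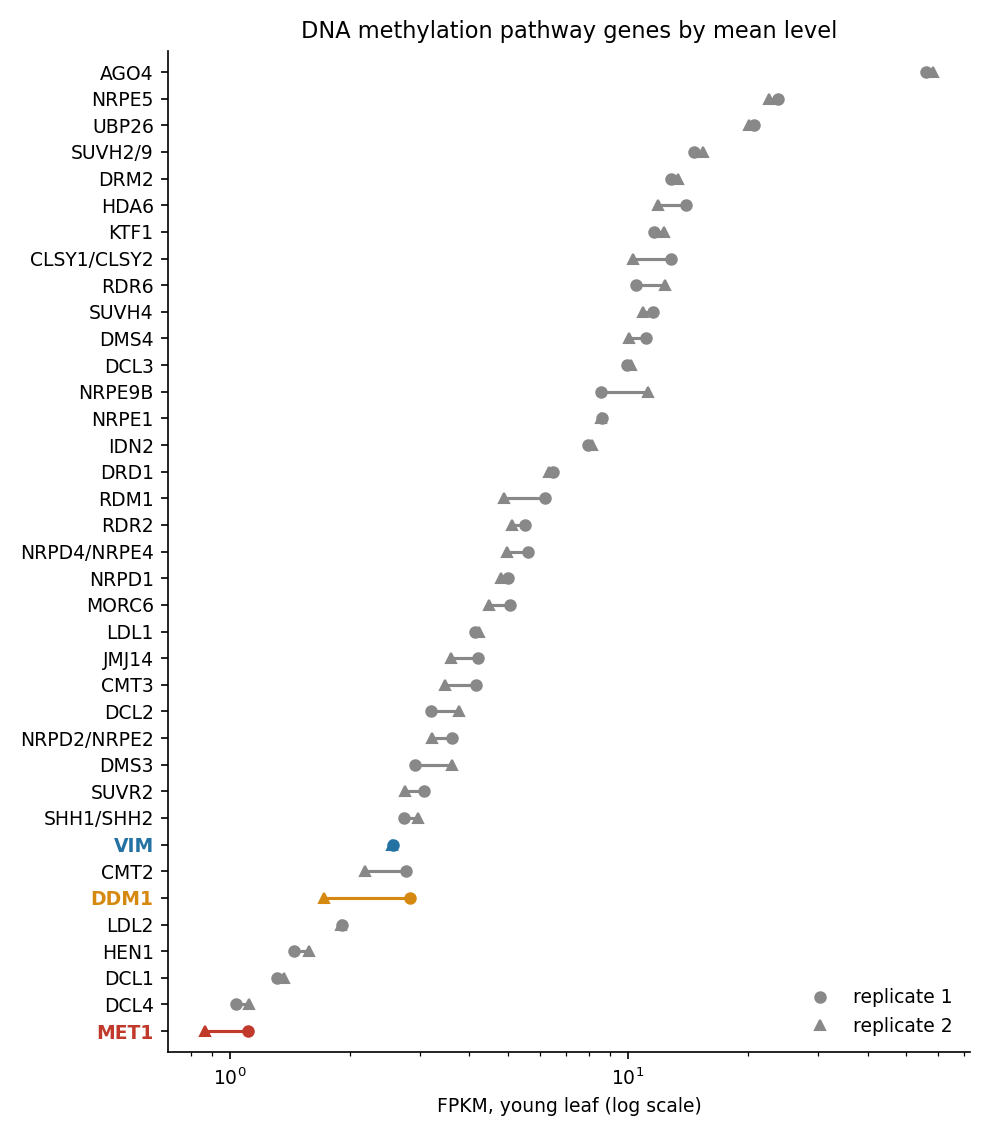
FPKM on a log scale of the 37 DNA methylation pathway genes in young leaf, ordered by their mean with the highest at the top. Circles are replicate 1 and triangles replicate 2, joined by a line, with MET1, VIM and DDM1 in colour. These 3 lie among the 8 lowest genes, and DDM1 has the widest gap between its replicates on this scale.

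The pathway genes nearest in level were found by the distance between their pairs of log2 FPKM over the 2 replicates. Nearest to MET1 was DCL4, at FPKM 1.03 in replicate 1 and 1.12 in replicate 2, at a distance of 0.38 on the log2 scale. DCL1 (CSA034540), the Dicer that makes most microRNAs in Arabidopsis, followed with 1.32 and 1.37, at a distance of 0.71. Nearest to VIM were SHH1/SHH2 (CSA015026), which recruits RNA polymerase IV in Arabidopsis, at 0.24, and CMT2 (CSA032127), a chromomethylase that maintains CHH methylation, at 0.25. Nearest to DDM1 was the same CMT2, at 0.35, and then LDL2 (CSA000647), a homolog of histone demethylases, at 0.58. With 2 samples of the same tissue, this likeness is one of level alone.

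The genes were next set beside other pathway genes of their own protein family. These families were put together from known domains after the values had been seen, and no test was made on them. Each of the 3 was the lowest of its family in both replicates. Of all 34 other pathway genes, 33 lay above MET1, 29 above VIM and 27 above DDM1 without overlap. The lowest place in a small family therefore adds little to this.

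Among the cytosine methyltransferases, MET1 stood at 0.400 of CMT2 in replicate 1 and at 0.395 in replicate 2, a mean ratio of 0.398 ± 0.00334 (SD, n = 2). CMT2 itself was at FPKM 2.77 in replicate 1 and 2.19 in replicate 2, so both genes were lower in replicate 2 by nearly the same factor. Against CMT3 (CSA030966), which maintains CHG methylation, MET1 stood at 0.268 in replicate 1 and 0.249 in replicate 2. CMT3 was at FPKM 4.15 in replicate 1 and 3.48 in replicate 2. The widest distance was to DRM2 (CSA001531), the de novo methyltransferase of the RNA-directed pathway, of which MET1 reached 0.0864 in replicate 1 and 0.0649 in replicate 2. DRM2 had an FPKM of 12.8 and 13.3. Of the summed FPKM of these 4 methyltransferases, MET1 held 5.31% in replicate 1 and 4.36% in replicate 2, while DRM2 held 61.5% and 67.1%.

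VIM shares the SRA domain with the SUVH proteins. SUVH4 (CSA002812), a histone methyltransferase that places the H3K9me2 mark bound by CMT3, was at FPKM 11.6 in replicate 1 and 10.9 in replicate 2. VIM stood at 0.222 of SUVH4 in replicate 1 and at 0.234 in replicate 2, a mean ratio of 0.228 ± 0.00821 (SD, n = 2). SUVH2/9 (CSA033444), which brings RNA polymerase V to methylated DNA in Arabidopsis, had 14.7 in replicate 1 and 15.4 in replicate 2, and VIM stood at 0.175 and 0.166 of it. The difference of VIM from both genes was far larger than the spread between replicates.

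DDM1 belongs with DRD1 (CSA033157) and CLSY1/CLSY2 (CSA023919) to the SNF2-type ATPases, of which DRD1 and the CLSY proteins act in the RNA-directed pathway, at RNA polymerases V and IV. DDM1 stood at 0.436 of DRD1 in replicate 1 and at 0.271 in replicate 2, and DRD1 was at FPKM 6.50 in replicate 1 and 6.35 in replicate 2. CLSY1/CLSY2 had 12.8 in replicate 1 and 10.3 in replicate 2, and DDM1 stood at 0.221 and 0.167 of it. The replicates of DRD1 were 1.02-fold apart and those of CLSY1/CLSY2 1.25-fold, and neither gene overlapped with DDM1.

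**Figure D4:**
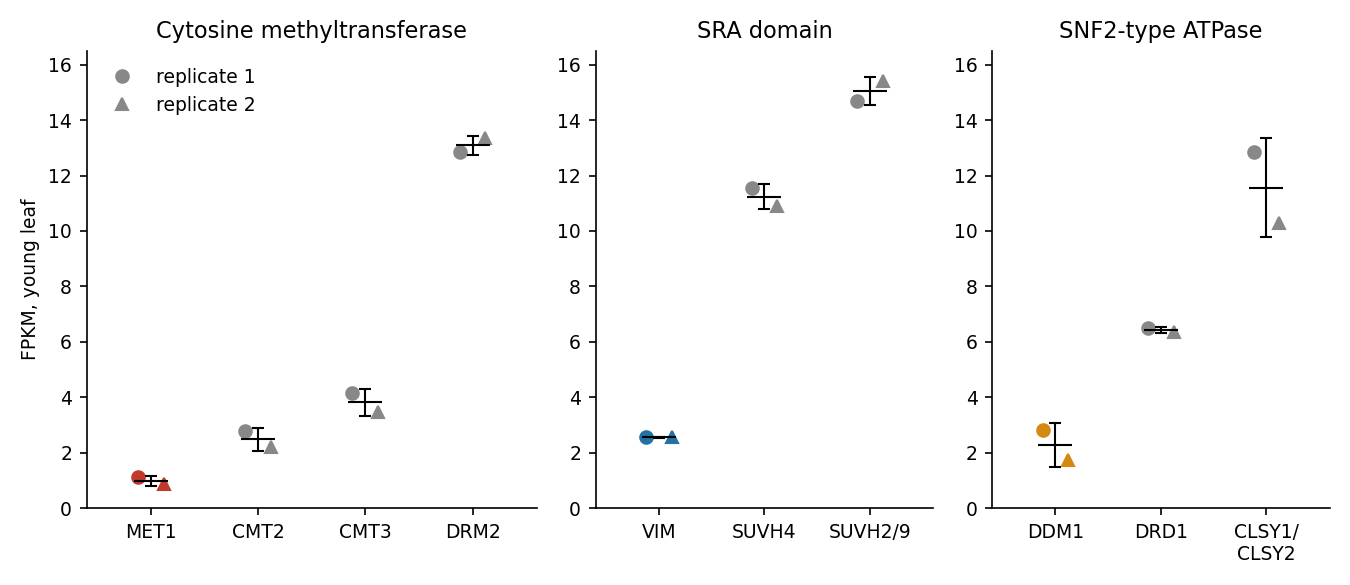
FPKM in young leaf of MET1, VIM and DDM1 (coloured, leftmost in each panel) beside genes of the same protein family in the pathway (grey): cytosine methyltransferases, proteins with an SRA domain, and SNF2-type ATPases. Circles are replicate 1, triangles replicate 2, and black bars the mean ± SD (n = 2). The coloured gene is the lowest in each panel in both replicates.

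The study listed DDM1 in a class of other genes. It also holds HDA6 (CSA007759), a histone deacetylase, MORC6 (CSA024443), an ATPase of silenced chromatin, and RDR6 (CSA020358). DDM1 stood at 0.202 of HDA6 in replicate 1 and at 0.144 in replicate 2. Against MORC6 it stood at 0.561 in replicate 1 and 0.384 in replicate 2. RDR6 was at FPKM 10.5 in replicate 1 and 12.4 in replicate 2. None of these genes overlapped with DDM1, and all were higher than MET1 and VIM as well.

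The 3 genes differed widely in how well the replicates agreed. The log2 ratio of replicate 2 to replicate 1 was -0.36 for MET1, -0.01 for VIM and -0.72 for DDM1. All 3 were thus listed higher in replicate 1. So were 51.9%, 47.6% and 48.2%, in the same order, of the genes of similar mean described below. VIM was higher in replicate 2 by 0.07 when each library was rescaled to the same sum (TPM). A large part of those sums comes from the highest gene alone, at FPKM 236370 in replicate 1 and 207331 in replicate 2. With the libraries scaled by their median ratio instead, the log2 ratio of VIM stayed at -0.013. The SD was 17.5% of the mean for MET1, 0.478% for VIM and 34.5% for DDM1. The replicates of DDM1 were 1.64-fold apart, those of MET1 1.28-fold and those of VIM 1.01-fold. Of the 34 other pathway genes, 19 had their higher value in replicate 1 and the other 15 in replicate 2, their median distance was 1.08-fold and their largest 1.31-fold.

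A distance of more than 1.5-fold between the replicates was found for 1 of the 3 genes, DDM1, and for 0 of the 34 other pathway genes. Over all listed genes, 25.0% were that far apart in either direction and 12.9% with replicate 1 higher. Low genes vary more, and each gene was therefore also set among genes within 1.5-fold of its own mean that were above 0 in both replicates. The difference of MET1 was larger than that of 46.7% of 2489 such genes, close to their median of 0.39 on the log2 scale. The difference of DDM1 was larger than that of 86.3% of 3709 genes, whose median was 0.27. VIM differed more than only 2.22% of 3880 genes, whose median was 0.25. A close match of 2 values of a gene does not show that a further sample would lie as close.

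**Figure D5:**
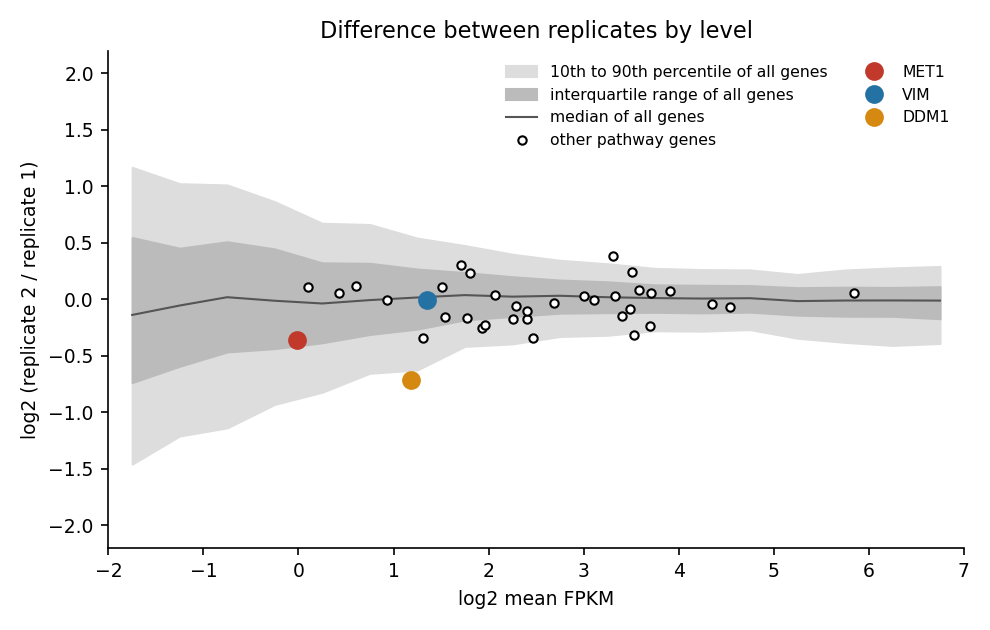
Log2 ratio of replicate 2 to replicate 1 against log2 mean FPKM. The light band spans the 10th to the 90th percentile and the dark band the interquartile range of all genes above 0 in both replicates at each level, the line is their median, open circles are the 34 other pathway genes, and coloured points MET1 (-0.36), VIM (-0.01) and DDM1 (-0.72). DDM1 lies lowest of all pathway genes and just below the light band, and MET1 lies inside the dark one.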

How the data were processed

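Per the labels, RNA of young leaf was extracted by the CTAB method and poly(A) RNA was sequenced as paired-end reads. The labels speak of 3 pooled libraries, while 2 RNA-seq samples are listed. The authors mapped the reads to the tea reference genome with TopHat2 2.1.0, kept unique alignments and deposited FPKM values from Cufflinks for each replicate, with their mean. Reads that fit near-identical genes equally well are thus not counted. The study names the Camellia sinensis var. assamica genome for its bisulphite reads. The version of Cufflinks, the assembly version and the annotation are not given in the sources used here. With FPKM in place of counts, no count model was fitted, and with 1 condition no test was run.

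Means, SDs, ranks, ratios and log2 ratios without a pseudocount were computed from the deposited FPKM. Genes listed at 0 in 1 replicate counted as past the 1.5-fold limit. The genes named were the 3 members, CMT2, CMT3, DRM2, SUVH4, HDA6, MORC6 and the 2 pathway genes nearest to each member. SUVH2/9, DRD1, CLSY1/CLSY2 and RDR6 were added after their values were seen. The members and lists were chosen with earlier results of these data known. The functions were tested on simulated data. Python 3.11.15, numpy 2.4.6, pandas 2.3.3 and matplotlib 3.10.9 were used.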

Additional observations from a re-analysis of the deposited data

How the results depend on the processing

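The MET1/VIM and MET1/DDM1 ratios were moved most by a pseudocount of 1, which gave 0.558 and 0.618 and draws low values together by construction. Leaving out 1 replicate only returns the ratio in the other, already given above. These ratios ran from 0.339 to 0.432 for MET1/VIM, 0.392 to 0.503 for MET1/DDM1 and 0.675 to 1.10 for DDM1/VIM. For DDM1/VIM the direction depends on the replicate. At a limit of FPKM 1 in place of 0.5, 2 of the 3 genes passed, and at 2-fold in place of 1.5-fold, 0 had replicates that far apart. The percent of genes below each gene depended on the genes ranked. Among genes with a mean of at least 0.5 it was 8.52% for MET1, 25.1% for VIM and 22.6% for DDM1. Counting the 9396 identifier numbers that have no row as genes at 0, an alternative chosen after seeing the data, gave 43.9%, 54.1% and 52.6% in the same order. MET1 has no value among genes with a mean of at least 1, since its own mean is lower. TPM gave a mean of 0.946 for MET1, 2.46 for VIM and 2.17 for DDM1. No groups of samples were compared, so none could be paired, while the ratios pair the genes within each replicate. The unknown depth leaves the counting error of these low values, above all of MET1, without a limit.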

Other observations

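Between the replicates, 36 of the 666 pairs among the 37 pathway genes changed their order of FPKM. MET1 took part in 1 of these, with DCL4, and VIM in 2, with CMT2 and DDM1. DDM1 took part in 4, with VIM, CMT2, SHH1/SHH2 and LDL2.

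VIM lay at the edge of an expression group. With genes under FPKM 0.5 in the first of 5 groups and all others split by rank into 4 groups alike in size, its mean of 2.56 placed it in the third group, which began at 2.55. In each replicate alone it was in the second group, since the third began at 2.60 in replicate 1 and at 2.59 in replicate 2. DDM1 was in the third group in replicate 1 and in the second in replicate 2, and MET1 was in the second in both. Statements about VIM or DDM1 by expression group therefore depend on which values are ranked.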
